A study of Rattus norvegicus with 35 samples.

Results

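The genes described here are 10 factors through which an olfactory sensory neuron chooses an olfactory receptor (OR) gene and brings the receptor protein to its surface: the transcription factors Lhx2, Emx2, Ebf1, Ebf2 and Ebf3, the LIM cofactor Ldb1, the stress-response factor Atf5, and the trafficking factors Rtp1, Rtp2 and Reep1. They were fixed by name. The gene name or bracketed symbol of the array annotation gave 10 probes of 9 genes. Emx2 was found only through its older locus name, which the RefSeq gene table lists as a synonym, and added 2 probes. In all, 12 of the 41012 probes belonged to the 10 genes, with 2 probes each for Ebf2 and Emx2 and 1 for every other gene.

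As background, a sensory neuron of the olfactory epithelium expresses a single OR allele out of a very large family. Lhx2, a LIM homeodomain protein, and the Ebf proteins (also called O/E factors) bind composite sites at OR promoters and enhancers, Ldb1 joins enhancers held by Lhx2, and Emx2 is a homeodomain protein needed for the expression of many OR genes. Once a receptor is made in the endoplasmic reticulum, the unfolded protein response leads to translation of Atf5, which takes part in fixing the choice, and the transmembrane proteins Rtp1 and Rtp2 escort receptors to the cell surface. Reep1 shapes the endoplasmic reticulum and was found to aid receptor surface expression in cultured cells.

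Olfactory epithelium of untreated Brown Norway rats was hybridized to 35 arrays with 1 dye. The newborn group held 19 pups of 4 litters (4 of L1 and 5 each of L2, L3 and L4), 3 to 5 days old and of unknown sex, with 1 array per pup. The adult group held 4 males of 9 weeks and the old group 4 males of 22 months, with an array for each nostril, A and B, averaged to 1 value per rat. Sex therefore could not be told apart from age between the newborn and the other groups. Levels are the log2 of background-subtracted intensity over the array median, so 0 is the median probe of that array. The array medians lay between 46.0 and 96.5 for newborn, 88.7 and 179 for adult and 40.2 and 59.8 for old rats, and 24484 to 28361 probes of an array were above background. Adult arrays were scanned alone on 2 of 5 scan days, L1 and old arrays shared the third day, and L2 to L4 arrays followed. L1 against old rats was thus the only comparison of ages within 1 scan day, and for adult rats scan day and age cannot be told apart. Scan day as a random block allows for variation between days but does not separate day from adult age. Adult arrays alone were also read with an earlier release of the Feature Extraction software (9.5.1.1 against 9.5.3.1), which cannot be told apart from adult age. Markers of mature sensory neurons fitted the tissue label, with Omp (olfactory marker protein) at 5.03 ± 0.36 (SD, n = 19) in newborn, 7.43 ± 0.23 (n = 4) in adult and 8.14 ± 0.19 (n = 4) in old rats.

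The probes on which the results turn are printed first, because the same gene gave different answers at different positions. The 2 probes of Ebf2 lie on chromosome 15 of build rn3, plus strand. The upstream probe spans chr15:46800623-46801075, 453 bases of genome for 60 probe bases, and the downstream probe spans chr15:46977222-46986552, or 9331 bases. Each therefore joins exons across an intron.
Ebf2 upstream probe: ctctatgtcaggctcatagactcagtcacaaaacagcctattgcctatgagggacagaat
Ebf2 downstream probe: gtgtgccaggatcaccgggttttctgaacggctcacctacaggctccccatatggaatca

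For Emx2, a brighter probe (chr1:266222114-266222173, plus strand) lies downstream of a dimmer one (chr1:266220817-266220876), and for Rtp1 the probe lies at chr11:79678092-79678151, minus strand. The first 30 bases of each are shown to identify them. Whether these probes lie in coding or untranslated exons was not annotated here.
Emx2 brighter probe: ttcaagcactgagtttctcttccaagacca
Emx2 dimmer probe: tcagaaccggagaacgaaattcaaaaggca
Rtp1 probe: cagtcgccccacgtagttatcctcttccac

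The remaining members were each read by 1 probe of the same build, in 60 contiguous bases except for Reep1. Lhx2 was read at chr3:18043293-18043352 (plus strand), Ebf1 at chr10:30164135-30164194 (plus strand) and Rtp2 at chr11:79152979-79153038 (plus strand). On the minus strand of chromosome 1 lay the probes of Ebf3 (chr1:197193234-197193293), Ldb1 (chr1:251516157-251516216) and Atf5 (chr1:95362208-95362267). The Reep1 probe covered chr4:105305777-105313815, 8039 bases of the plus strand, and so also crosses an intron. Rtp2 fell short of the filter for expression in all 6 groups, and the other 9 genes, with 11 probes, were tested among 23668 transcripts.

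The member probes did not move together with age. Rtp1 was lower in newborn than in adult and old rats, both Emx2 probes were higher, Atf5 was lowest in adult rats, and the 2 probes of Ebf2 were not called in the same comparisons. Lhx2, Ldb1, Ebf1 and Reep1 passed the test between none of the 3 ages. Counting 1 probe per gene, the brighter one, 2 of 9 genes were called higher (Emx2 and Atf5) and 2 lower (Rtp1 and Ebf2) in newborn against adult rats at an adjusted p under 0.01 (limma). Of all transcripts tested, 39.6% were called higher and 26.3% lower in that comparison, so a call was common in this comparison. In newborn against old rats, 2 were called higher (Emx2 and Ebf3; background 27.7%) and 1 lower (Rtp1; background 31.8%). In adult against old rats, 1 was called higher (Ebf2; background 15.3%) and 1 lower (Atf5; background 31.7%). The median change of all tested transcripts was itself 0.16, −0.04 and −0.19 in the 3 comparisons, and the value of a member relative to that median is given below where it is called.

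**Figure D1:**
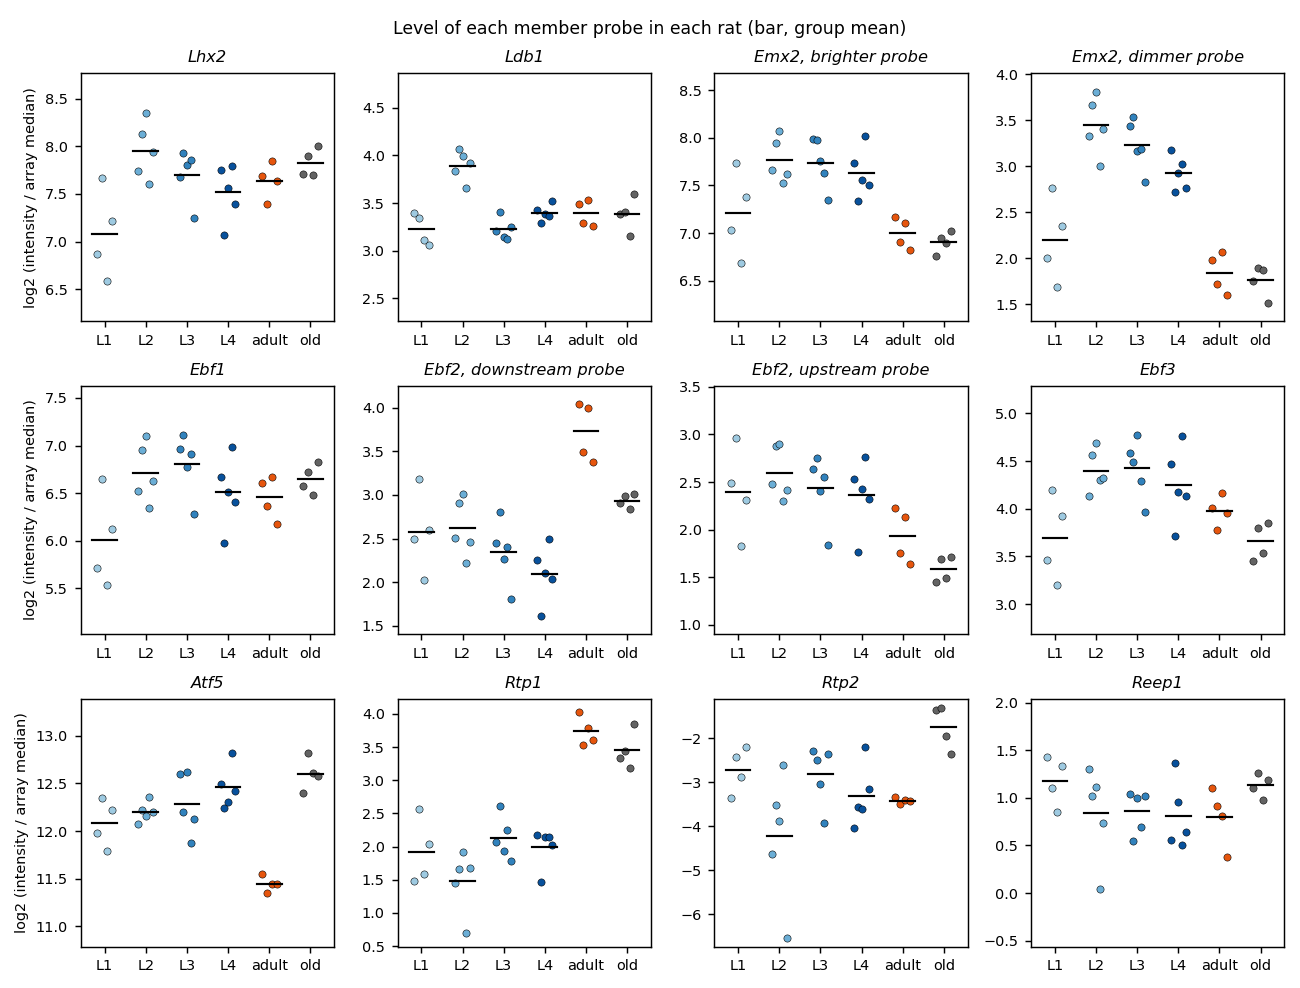
Level of each of the 12 member probes in each of the 27 rats (y axis, log2 of intensity over the array median; x axis, the litters L1 to L4, adult and old rats; bars, group means). Rtp1 lies between 0.69 and 2.62 in the pups and between 3.19 and 4.02 in the adult and old rats, whereas Lhx2, Ldb1, Ebf1 and Reep1 overlap across the ages.

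Among the transcription factors, Lhx2, which is required for most OR expression, measured 7.69, 7.39, 7.85 and 7.63 in the 4 adult rats and 7.71, 7.90, 7.70 and 8.01 in the 4 old rats. The 19 pups ranged from 6.58 to 8.35 with a median of 7.67. The groups overlapped, and the newborn minus adult difference was −0.08 (95% interval −0.40 to 0.25, adjusted p = 0.663), the newborn minus old difference −0.27 (−0.59 to 0.06, adjusted p = 0.135) and the adult minus old difference −0.19 (−0.60 to 0.23, adjusted p = 0.438). This depended on the scaling between arrays: after quantile normalization Lhx2 was lower in newborn than in adult rats by a difference of −0.66 (SE 0.13, adjusted p = 6.97e-05). Within the shared scan day, L1 pups (6.87, 7.67, 6.58 and 7.21) lay below every old rat, by −0.74 (SE 0.20, adjusted p = 0.00271). In that comparison 17.7% of all transcripts were called higher and 30.2% lower. The call was lost without L1 rat 9, L1 rat 11 or old rat 20 (adjusted p up to 0.0186) and with slide as a random block (adjusted p = 0.0237).

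Ldb1, which has no DNA-binding domain of its own and bridges LIM proteins, was the most even member between the ages. It measured 3.49, 3.29, 3.53 and 3.26 in adult rats, 3.38, 3.41, 3.16 and 3.60 in old rats, and 3.06 to 4.07 in pups (median 3.39). The 95% interval of its change was −0.13 to 0.21 for newborn against adult and −0.21 to 0.22 for adult against old rats. The newborn interval, like the other newborn intervals, takes pups as replicates and leaves out the variation between litters. The differences of Ldb1 lay between litters instead. The 5 pups of L2 (3.84, 4.07, 3.99, 3.66 and 3.92) were above all 14 pups of the other litters, and the F test among litters gave an adjusted p of 6.4e-06.

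Emx2 was higher in newborn rats with both probes. The brighter probe measured 7.17, 6.91, 7.11 and 6.82 in adult rats, 6.76, 6.95, 6.90 and 7.02 in old rats, and 6.68 to 8.07 in pups (median 7.63). Of the pups, L1 rat 9, at 7.03, lay within the range of the older animals and L1 rat 11, at 6.68, below it, and the other 17 pups lay above it. The newborn minus adult difference was 0.58 (SE 0.14, 1.5-fold, adjusted p = 0.000756; 0.43 relative to all transcripts), and the newborn minus old difference was 0.68 (SE 0.14, 1.6-fold, adjusted p = 0.000177; 0.72 relative to all transcripts). The dimmer probe gave larger differences, 1.11 (SE 0.15, adjusted p = 5.01e-07) and 1.19 (SE 0.15, adjusted p = 2.24e-07). Adult and old rats were not called different (0.10, 95% interval −0.28 to 0.47, for the brighter probe), except after quantile normalization without normexp background correction (0.62, adjusted p = 0.00106) or with it (0.55, adjusted p = 0.00309). Under quantile normalization the brighter probe lost its call against adult rats (0.07, adjusted p = 0.578), as it did with normexp added (0.16, adjusted p = 0.213). L1 against old rats, in 1 scan day, gave 0.30 (SE 0.18, adjusted p = 0.161) for the brighter and 0.44 (SE 0.20, adjusted p = 0.0535) for the dimmer probe, neither of them called. The brighter probe passed that test after quantile normalization (0.52, adjusted p = 0.00386).

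The Ebf genes, which encode helix-loop-helix proteins that bind OR promoters and other genes of the sensory neuron, behaved differently from each other. Ebf1 overlapped between all ages, at 6.61, 6.37, 6.67 and 6.18 in adult rats, 6.57, 6.73, 6.48 and 6.83 in old rats and 5.53 to 7.11 in pups (median 6.63). Its newborn minus adult difference was 0.05 (95% interval −0.30 to 0.41, adjusted p = 0.788). Ebf3 measured 4.01, 3.77, 4.16 and 3.96 in adult rats, 3.45, 3.80, 3.54 and 3.85 in old rats and 3.20 to 4.77 in pups (median 4.29). It was called higher in newborn than in old rats by 0.53 (SE 0.16, 1.4-fold, adjusted p = 0.00543; 0.58 relative to all transcripts), although the groups overlapped. The Ebf3 call was lost without old rat 17 or 19 (adjusted p up to 0.0312) and with slide (adjusted p = 0.0189) or scan day (adjusted p = 0.0245) as a random block. It was also lost with litter means as the newborn replicates (adjusted p = 0.0117). L1 against old rats in the shared scan day gave 0.04 (SE 0.21, adjusted p = 0.888).

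For Ebf2 the answer depended on the probe. The downstream probe measured 4.05, 3.49, 4.0 and 3.37 in adult rats, 2.91, 2.98, 2.84 and 3.01 in old rats, and 1.61 to 3.18 in pups (median 2.45). Newborn and adult rats did not overlap in 38.7% of all transcripts, and adult and old rats in 57.7%. For the downstream probe, every adult rat lay above every pup and every old rat. The newborn minus adult difference was −1.32 (SE 0.18, 2.5-fold, adjusted p = 4.17e-07; −1.47 relative to all transcripts), the newborn minus old difference −0.52 (SE 0.18, adjusted p = 0.0119; −0.56 and adjusted p = 0.00582 after quantile normalization), and the adult minus old difference 0.79 (SE 0.23, 1.7-fold, adjusted p = 0.00477; 0.99 relative to all transcripts). The last call was lost without adult rat 13 or 15 or old rat 17 or 19 (adjusted p up to 0.0213) and with slide (adjusted p = 0.0198) or scan day (adjusted p = 0.0474) as a random block.

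The upstream probe measured 2.22, 1.75, 2.13 and 1.64 in adult rats, 1.45, 1.69, 1.49 and 1.71 in old rats, and 1.77 to 2.96 in pups (median 2.48). Here every pup lay above every old rat, beside 31.8% of all transcripts without overlap between newborn and old rats. The newborn minus old difference was 0.86 (SE 0.17, 1.8-fold, adjusted p = 0.000122; 0.91 relative to all transcripts) and the newborn minus adult difference was 0.51 (SE 0.17, adjusted p = 0.0112), which passed the test after normexp and quantile normalization (0.47, adjusted p = 0.00318). In the shared scan day, L1 minus old rats was 0.81 (SE 0.22, adjusted p = 0.00335), a call that was lost without L1 rat 9 or 10 or old rat 17 or 19 (adjusted p up to 0.0212) and with slide as a random block (adjusted p = 0.0263). The 2 probes of Ebf2 thus had differences of opposite sign between newborn and adult rats, of which the downstream one was called.

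The difference between the Ebf2 probes within a rat, downstream minus upstream, cancels whatever scales both probes alike, and it was examined after the values of the probes had been seen. It was −0.04 on average in the 19 pups (−0.33 to 0.29), 1.79 in the adult rats (1.73 to 1.87) and 1.35 in the old rats (1.29 to 1.46), and the 3 ages did not overlap. The litter means were 0.18 (L1), 0.03 (L2), −0.09 (L3) and −0.26 (L4), so that L1, scanned on the day of the old rats, was at 0.18 against their 1.35. With litter means as the newborn replicates, the change was −1.83 between newborn and adult, −1.39 between newborn and old and 0.44 between adult and old rats. No test is given, because the values had prompted the comparison. How often the probes of other genes with 2 probes separate the ages in this way was not tested. For single probes, 38.7% (newborn and adult), 31.8% (newborn and old) and 57.7% (adult and old) of all transcripts did not overlap. For the Emx2 probes, brighter minus dimmer, the changes were −0.53 and −0.51 between newborn and adult and newborn and old rats, and 0.01 between adult and old rats.

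**Figure D2:**
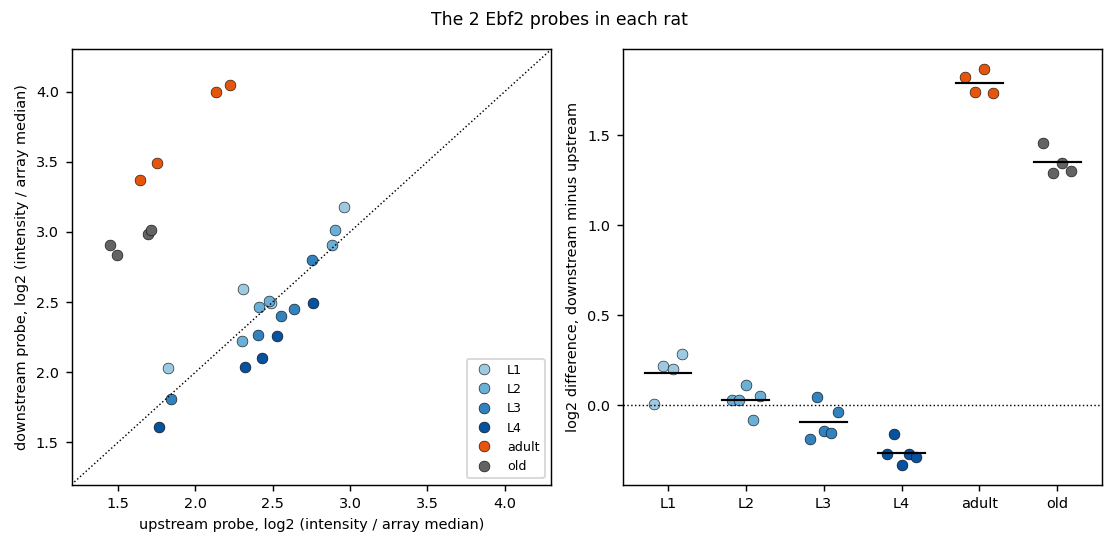
Left, level of the downstream against the upstream probe of Ebf2 in each of 27 rats (both axes log2 of intensity over the array median; dotted line, equal values). Right, the downstream minus upstream difference by group (bars, means): the pups lie between −0.33 and 0.29, the old rats between 1.29 and 1.46 and the adult rats between 1.73 and 1.87.

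Atf5, the translationally regulated factor of the stress response, was the third brightest of the 23668 transcripts by mean level. It measured 11.54, 11.35, 11.44 and 11.45 in adult rats, 12.40, 12.82, 12.61 and 12.58 in old rats and 11.79 to 12.82 in pups (median 12.22). Newborn and adult rats did not overlap in 38.7% of all transcripts, and adult and old rats in 57.7%. For Atf5, every adult rat lay below every other rat. The newborn minus adult difference was 0.81 (SE 0.12, 1.8-fold, adjusted p = 8.55e-07; 0.66 relative to all transcripts) and the adult minus old difference was −1.15 (SE 0.15, 2.2-fold, adjusted p = 4.9e-07; −0.96 relative to all transcripts). The newborn minus old difference was −0.34 (SE 0.12, adjusted p = 0.0111), which passed the test with scaling to the 75th percentile (−0.39, adjusted p = 0.00284). L1 against old rats gave −0.52 (SE 0.15, adjusted p = 0.00446), a call that was lost without L1 rat 9 or 11 or old rat 18 or 19 (adjusted p up to 0.0255) and with slide as a random block (adjusted p = 0.0192).

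The 100 brightest transcripts had a median difference of 1.23 between newborn and adult rats (89 called higher and 3 lower) and of −1.06 between adult and old rats (0 called higher and 97 lower), in the direction of Atf5. In newborn against old rats (0.25, with 51 higher and 18 lower) and L1 against old rats (0.17, with 28 higher and 17 lower) their median was above 0, where Atf5 was below. The unscaled median intensity of Atf5 was 342940 on adult arrays, within the range of the litters (211420 to 347310) and near the 300570 of old rats, whereas the median adult array median was 122.7 against 45.8 in old rats. After quantile normalization the 2 called differences of Atf5 were 0.37 and −0.56. Its spot was saturated on 1 adult array. The part of array brightness in the Atf5 result was not tested.

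Among the trafficking factors, Rtp1, which carries receptors from the endoplasmic reticulum to the membrane, changed most. It measured 4.02, 3.53, 3.79 and 3.60 in adult rats, 3.34, 3.43, 3.19 and 3.85 in old rats, and 0.69 to 2.62 in pups (median 1.93). Every pup lay below every adult and every old rat, as did 38.7% of all transcripts, in one direction or the other, between newborn and adult rats and 31.8% between newborn and old rats. The newborn minus adult difference was −1.85 (SE 0.19, 3.6-fold, adjusted p = 4.28e-09; −2.01 relative to all transcripts) and the newborn minus old difference was −1.57 (SE 0.19, 3.0-fold, adjusted p = 1e-07; −1.53 relative to all transcripts). L1 against old rats in the shared scan day gave −1.53 (SE 0.24, adjusted p = 9.62e-06). The adult minus old difference was 0.28 (95% interval −0.22 to 0.79, adjusted p = 0.328), and it passed the test only after normexp and quantile normalization (0.59, adjusted p = 0.00438).

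Rtp1 is made by sensory neurons, and fewer such cells cannot be told apart from less RNA per cell in whole tissue. All 9 measured markers of mature sensory neurons were lower in newborn than in adult and in old rats, with a median of −2.24 and −2.87. Their summed level over the array median was 336 to 824 in pups, 1644 to 2095 in adult and 2383 to 3100 in old rats. In the markers of immature sensory neurons, 5 of 6 tested were higher in pups than in adult rats and 6 of 6 higher than in old rats, with sums over 5 genes of 532 to 1382, 457 to 559 and 305 to 381. Gap43, a growth cone protein of young neurons, differed by 0.78 (SE 0.12, adjusted p = 4.11e-06) between newborn and adult rats. Other cell types moved with age as well. Markers of globose basal and dividing cells were higher in newborn rats in 5 of 5 genes tested (median 2.26 against adult and 2.64 against old rats), and those of sustentacular cells lower in 5 of 6 (−1.22 in both), with summed levels over 6 genes of 616 to 1453 in pups, 2253 to 2655 in adult and 3217 to 3764 in old rats. Fibroblast markers were higher in newborn rats in 5 of 6 genes against adult and 6 of 6 against old rats (1.3 and 3.04), cartilage and bone markers in 1 of 3 and 3 of 3 (0.23 and 3.83) and red cell markers in 2 of 2 and 1 of 2 (2.54 and 0.84). The part of these cell types in the changes of the members was not tested.

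Rtp2, the close relative of Rtp1, was near background. It was above background on 6 of 8 arrays of old rats, on 0 of 8 arrays of adult rats, and on 2 of 4, 0 of 5, 0 of 5 and 1 of 5 arrays of L1 to L4. Its log2 level was −1.35, −1.30, −1.95 and −2.34 in the 4 old rats and −3.34, −3.48, −3.40 and −3.42 in the adult rats, where it was not well above background. For adult, L2 and L3 arrays the lowest detectable signal of each array was taken as a bound. The mean of the old rats was 1.69-fold above the bound of adult rats, 1.36-fold above that of L2 and 1.43-fold above that of L3. The old mean included arrays not above background, so these ratios are not guaranteed minima. They hold on the scale of the array median. Before scaling, the median Rtp2 intensity was 15.7 (5.3 to 22.9) on old and 12.0 (6.4 to 17.4) on adult arrays. The part of array brightness in the Rtp2 difference was not tested. In the limma fit over all 41012 probes, newborn against old rats passed the test (−1.53, SE 0.44, adjusted p = 0.00527), and adult against old rats (adjusted p = 0.0197) and newborn against adult rats (adjusted p = 0.811) did not. Reep1 passed the filter and did not pass the test, at 1.10, 0.91, 0.81 and 0.38 in adult rats, 1.10, 1.26, 0.98 and 1.19 in old rats and 0.04 to 1.43 in pups (median 0.99). Its newborn minus adult difference was 0.12 (95% interval −0.23 to 0.48, adjusted p = 0.519).

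**Figure D3:**
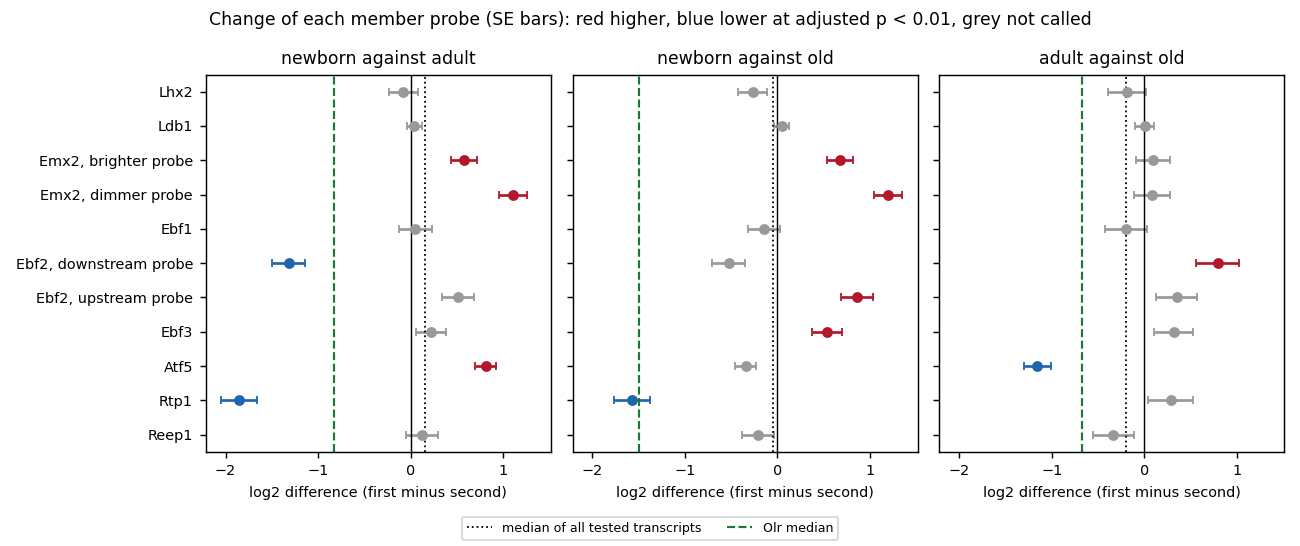
Change of each of the 11 tested member probes (x axis, log2 difference, first minus second group; bars, SE; red called higher, blue called lower, grey not called) in 3 comparisons. The dotted line marks the median change of all tested transcripts (0.16, −0.04 and −0.19) and the dashed line the change of the Olr median (−0.83, −1.50 and −0.67), which Rtp1 alone reaches in newborn against old rats.

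The choice factors act on OR genes, so the members were also set against the OR genes of the same arrays. The median log2 level over the 1112 Olr probes (1107 genes by the array's names) was −2.98 to −1.71 in pups, with a mean of the litter means of −2.29, and on average −1.46 ± 0.26 (SD, n = 4) in adult and −0.79 ± 0.12 (n = 4) in old rats. The Olr median differed by −0.83 between newborn and adult, −1.50 between newborn and old and −0.67 between adult and old rats (exact permutation p = 0.0286 each, the smallest possible). In pups it lay near the detection limit. In L2 it averaged −2.42, below the −2.18 that was the bound for Rtp2 there. In L1, L3 and L4 it averaged −2.37, −2.03 and −2.33, above the same bound of −2.50, −2.25 and −2.45. The differences of the Olr median thus involve signals that are not above background. Over the 387 Olr probes that passed the filter for expression in all groups, the differences were −0.86, −1.66 and −0.80, and after normexp and quantile normalization of all Olr probes they were −0.21, −0.37 and −0.16.

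Once each rat's Olr median was subtracted, all 9 tested members differed between newborn and adult rats, 7 higher and 2 lower. Of all transcripts, 70.9% were called higher and 4.78% lower on this scale, so the 7 that were higher stood at a share near the background. The 2 that were lower were Rtp1, by −1.03 (SE 0.14, adjusted p = 2.36e-07), and Ebf2 by its downstream probe, −0.49 (SE 0.10, adjusted p = 0.000122). The Ebf2 call was lost with litter means as the newborn replicates (−0.43, SE 0.17, adjusted p = 0.0297). After normexp and quantile normalization Ldb1 (adjusted p = 0.369), Ebf1 (adjusted p = 0.899) and Ebf3 (adjusted p = 0.0269) were not called. Lhx2 was then called lower (−0.37, adjusted p = 0.002), and it was not called after quantile normalization alone (0.22, adjusted p = 0.0842). Against old rats, 8 of 9 were higher in newborn rats where 90.0% of all transcripts were higher and 1.70% lower. The exception was Rtp1, whose difference of −0.07 (95% interval −0.36 to 0.22, adjusted p = 0.62) followed that of the Olr median. Under normexp background correction with quantile normalization, however, the level of Rtp1 relative to the Olr median was lower in newborn than in old rats (difference −0.88, adjusted p = 9.3e-08).

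Between adult and old rats, 6 of 9 members were higher relative to the Olr median and none lower, beside a background of 33.0% higher and 1.80% lower. The 6 were Ebf2 (1.46, adjusted p = 4.32e-09), Ebf3 (0.99, adjusted p = 3.37e-06), Rtp1 (0.95, adjusted p = 0.000106), Emx2 (0.77, adjusted p = 3.99e-05), Lhx2 (0.48, adjusted p = 0.00558) and Ebf1 (0.47, adjusted p = 0.00205). The Lhx2 call was lost without adult rat 15 or 16 or old rat 17, 18 or 19 (adjusted p up to 0.032). It was also lost with litter means as the newborn replicates (adjusted p = 0.0449). The Ebf1 call was lost without old rat 19 and after normexp and quantile normalization (0.29, adjusted p = 0.145). Atf5 (−0.48, adjusted p = 0.0444), Ldb1 (0.68, adjusted p = 0.0112) and Reep1 (0.33, adjusted p = 0.409) were not called. Adult and old rats shared no overlap in the array-median levels of Ebf2 (downstream) and Atf5, beside 57.7% of all transcripts.

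**Figure D4:**
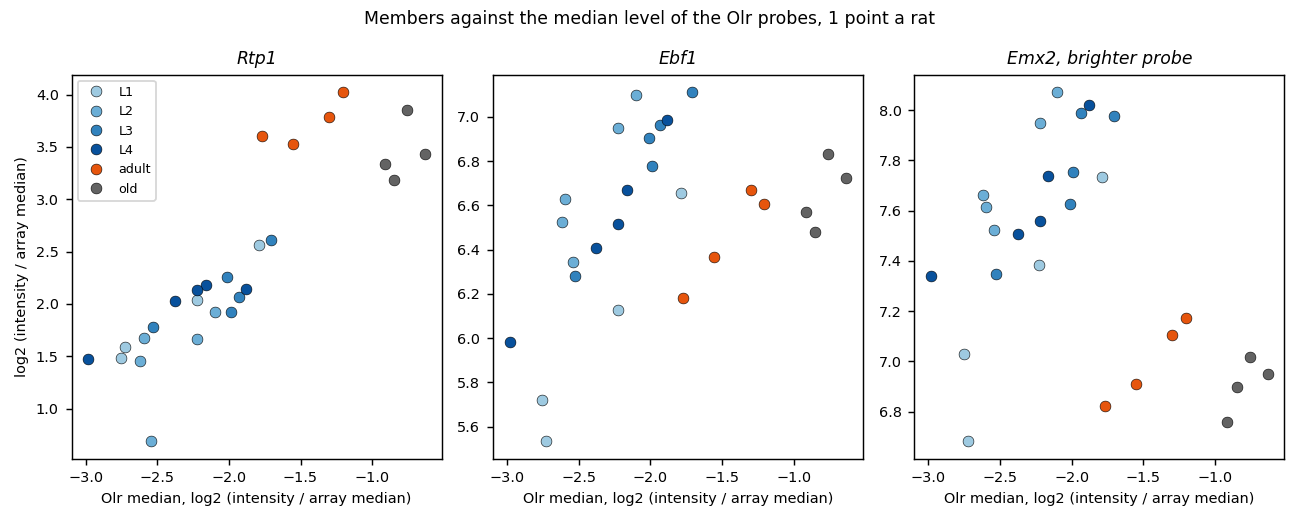
Level of Rtp1, Ebf1 and the brighter Emx2 probe (y axes) against the median of the 1112 Olr probes (x axes), 1 point for each of 27 rats (all axes log2 of intensity over the array median). Ebf1 rises with the Olr median within each age, while adult and old rats lie at higher Olr medians for the same Ebf1 and at lower Emx2.

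Within groups most of the neuronal factors varied from rat to rat together. After each of the 6 groups was centred on its mean, Pearson's r over the 27 rats was 0.94 between Lhx2 and Ebf1, 0.95 between Ebf1 and the brighter Emx2 probe, 0.96 between Ebf1 and the downstream Ebf2 probe and 0.97 between both Ebf2 probes, which without centring had an r of −0.07. With the Olr median, r within groups was 0.95 for Ebf1, 0.91 for Emx2, 0.89 for Lhx2, 0.77 for Rtp1, 0.55 for Atf5, 0.35 for Ldb1 and −0.14 for Reep1. These are descriptions. The values of a rat share its dissection, arrays and scaling, which were not separated.

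**Figure D5:**
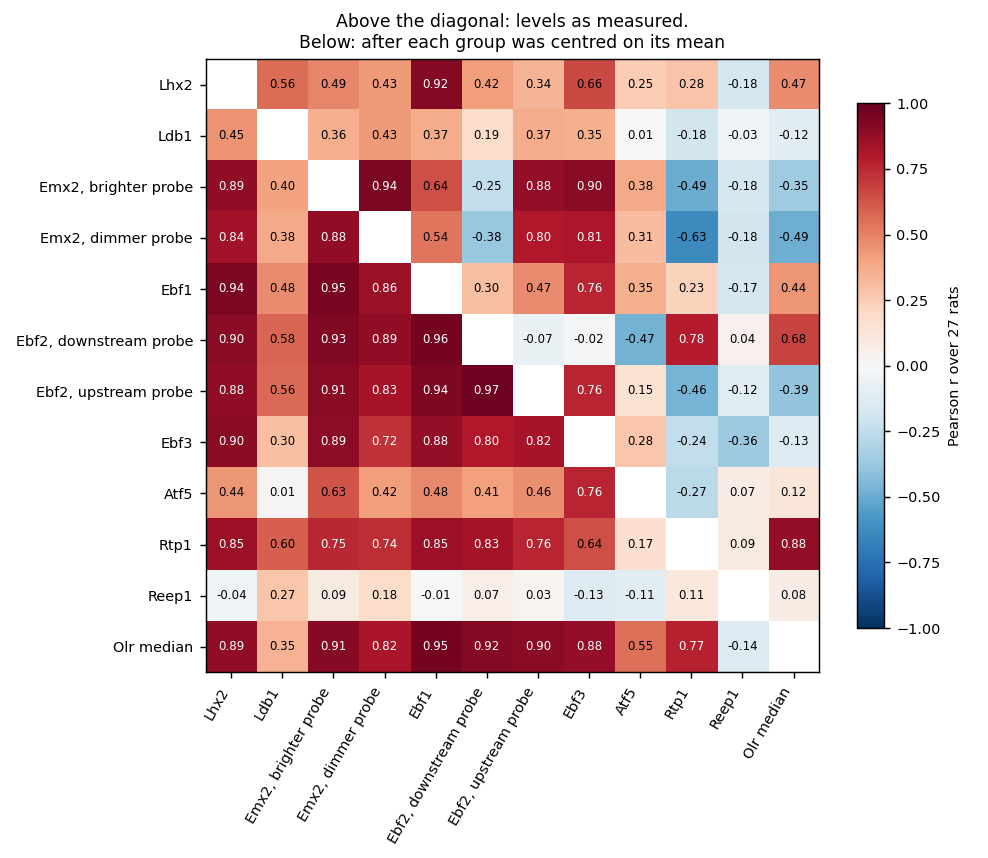
Pearson's r between the 11 tested member probes and the Olr median over 27 rats (colour scale −1 to 1). Rtp2, near background, was left out. Values as measured lie above the diagonal, and those after centring each of 6 groups on its mean lie below it. Lhx2, Emx2, the Ebf probes, Rtp1 and the Olr median form a block of high values below the diagonal, and Reep1 lies near 0 in most pairs.

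The transcripts most like each member over the 27 rats, age differences included, were looked up among 14385 named transcripts. For Rtp1 they were Rad51ap1 (r = 0.99), Cntn4 (0.98) and Dcdc2 (0.98), and for Emx2 they were Gng8 (0.94), a G protein subunit of immature sensory neurons, Elavl4 (0.94) and Gas2 (0.93). Lhx2 and Ebf1 had the same closest transcript, Arid2 (0.93 and 0.94), followed by Eaf2 and Ssx2ip for Lhx2 and by Nbea and Abcd2 for Ebf1. The closest were Akap9, Rbm15b and Sh3bgrl1 for Ebf2 (0.93 to 0.92), Or6c35, Spdya and Orc2 for Ebf3 (0.93 to 0.91), and Srp14, Skp1 and Arel1 for Atf5 (0.95 each). Ldb1 (Pias2, Prkar1a and Parp16, 0.85 to 0.83) and Reep1 (Chrnb2, Celf6 and Wdr6, 0.84 to 0.80) had less close neighbours.

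Litters differed in some members. The F test among the 4 litters called Lhx2 (adjusted p = 0.00406) and Ldb1 (above), and for Emx2 the dimmer probe (adjusted p = 4.15e-05) but not the brighter (adjusted p = 0.031), beside 36.4% of all transcripts. Lhx2 averaged 7.08 ± 0.47 (SD, n = 4) in L1 and 7.95 ± 0.30 (n = 5) in L2, and the dimmer Emx2 probe 2.20 ± 0.47 in L1 and 3.45 ± 0.31 in L2. L1 was also lowest in Ebf1 (6.01 ± 0.50) and Ebf3 (3.70 ± 0.45), which were not called (adjusted p = 0.0134 and 0.0119). The Lhx2 call was lost without L1 rat 9 or 11 or L2 rat 22 or 23 (adjusted p up to 0.0225) and with slide as a random block (adjusted p = 0.0868). L1 lay on 1 slide of its own, and its summed level of mature neuron markers had a median of 396 against 636 to 661 in the other litters. The part of these in the litter differences was not tested.

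Each adult and old rat also gave a difference between its nostrils. Over these 8 rats, the median absolute difference between A and B was 0.08 for Lhx2 and for the brighter Emx2 probe, 0.23 for Rtp1 and Atf5 and 0.26 for the downstream Ebf2 probe, whose highest was 0.91. For Rtp2, near background, it was 0.56, and at most 1.47. Side A was higher in 7 of 8 rats for the dimmer Emx2 probe, in 6 of 8 for Ldb1 and Reep1, and in 3 to 5 of 8 for the other probes.

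The other genes of these pathways were followed as lists. Of the relatives of the trafficking factors and Ric8b, 6 genes were tested, with 3 higher and 2 lower in newborn against adult and the same counts against old rats, beside 39.6% higher and 26.3% lower, and 27.7% higher and 31.8% lower, of all transcripts. Ric8b, the exchange factor for the olfactory G protein, differed by −2.84 (SE 0.18, 7.2-fold, adjusted p = 6.77e-13) and −2.64 (SE 0.18, adjusted p = 4.68e-12). Reep6 moved the same way (−1.32, adjusted p = 1.7e-06, and −1.67, adjusted p = 5.85e-08), whereas Reep5 was higher in newborn rats (1.84, adjusted p = 5.97e-14, and 1.21, adjusted p = 2.04e-10).

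Of the LIM complex and Ebf relatives, 8 of 17 genes were tested. In newborn against adult rats 5 were higher and 1 lower, in newborn against old 3 higher and 2 lower, and in adult against old 1 higher and 2 lower. These counts of 8 compare with 39.6% higher and 26.3% lower, 27.7% and 31.8%, and 15.3% and 31.7% of all transcripts. Ldb2, the relative of Ldb1, was 4.4-fold higher in newborn than in adult rats (2.13, SE 0.22, adjusted p = 5.79e-09) and lower in adult than in old rats (−1.28, adjusted p = 5e-04). Zfp521, a zinc finger partner of Ebf proteins, was higher in newborn than in old rats (2.28, SE 0.16, adjusted p = 1.03e-11) and in adult than in old rats (1.10, adjusted p = 8.73e-05). Of the LIM-only genes, Lmo1 was higher in newborn than in adult rats (2.37, SE 0.72, adjusted p = 0.00479) and Lmo2 lower than in adult (−1.12, SE 0.09, adjusted p = 1.35e-10) and in old rats (−1.41, adjusted p = 3.56e-12). Lmo1 ranged from a mean of −0.79 in L2 to 1.70 in L1, beside −1.90 in adult and −0.75 in old rats. It was not called in newborn against old rats (adjusted p = 0.135).

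Of 19 stress signalling genes around Atf5, 6 were higher and 7 lower in newborn against adult rats, 2 higher and 6 lower in newborn against old, and 4 higher and 6 lower in adult against old rats, with no single direction. The shares of all transcripts were 39.6% higher and 26.3% lower, 27.7% and 31.8%, and 15.3% and 31.7%. In newborn against adult rats the kinase Ern1 (2.0-fold, adjusted p = 7.52e-09) and the chaperone Dnajb9 (−1.03, adjusted p = 3.57e-07) were lower. Ddit3, a factor induced with Atf5 (−1.10, adjusted p = 5.29e-07), and Ppp1r15a (−0.87, adjusted p = 4.58e-06), a phosphatase subunit that ends the response, were lower in newborn than in old rats. Adult against old rats gave lower Atf6 (−1.34, adjusted p = 3.85e-08) and Ddit3 (−1.05, adjusted p = 4.92e-05), and higher Pdia4 (0.97, adjusted p = 7.42e-06) and Ppp1r15b (0.80, adjusted p = 8.21e-05).

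Of 10 chromatin genes tested, whose products act on silent receptor genes or heterochromatin, 6 were higher and 2 lower in newborn against adult, 7 higher and 0 lower in newborn against old, and 5 higher and 4 lower in adult against old rats, beside 39.6% and 26.3%, 27.7% and 31.8%, and 15.3% and 31.7% of all transcripts. The heterochromatin protein gene Cbx1 was higher in newborn than in adult rats (1.61, SE 0.10, adjusted p = 3.06e-13). Its relative Cbx5 was higher than in old rats both in newborn (2.08, SE 0.17, adjusted p = 8.62e-11) and in adult rats (1.84, SE 0.21, adjusted p = 1.19e-07). Cbx5 was at −0.06 in L1, which shared the scan day of the old rats at −0.66, and at 1.86 to 2.01 in the other litters. The histone methyltransferase gene Suv39h1 was higher in newborn than in old rats (1.11, adjusted p = 4.59e-09). Lbr, whose loss from sensory neurons lets OR clusters gather in heterochromatin, was higher in adult than in old rats (0.66, adjusted p = 0.000174).

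Of 8 other transcription factors of the neuronal lineage, 6 were higher and 0 lower in newborn against both adult and old rats, and 1 was higher and 2 lower in adult against old rats. Of all transcripts, 39.6%, 27.7% and 15.3% were higher and 26.3%, 31.8% and 31.7% lower. Nfix was 3.1-fold higher in newborn than in adult rats (1.65, SE 0.08, adjusted p = 1.8e-15) and lower in adult than in old rats (−1.07, adjusted p = 2.37e-09). Dlx5 was higher in newborn than in old rats (1.15, adjusted p = 3.97e-10) and Klf7 lower in adult than in old rats (−1.25, adjusted p = 3.39e-07).

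Promoters of the members were read from the RefSeq table of assembly GRCr8, 300 bases from 250 before to 50 after the start, which held 8 of the 10 genes but not Emx2 or Ebf2. They were searched for the O/E core CCCNNGGG and the homeodomain core TAATTA, which read the same on both strands. CCCNNGGG occurred in 4 of 8 member promoters (Lhx2, Ebf3, Ldb1 and Reep1), in 12.4% of 33469 promoters and in 1.18% of 929 Olr promoters. TAATTA occurred in 0 of 8 member promoters, in 5.36% of all and in 18.9% of Olr promoters. The 4 promoters with CCCNNGGG had a GC content of 67 to 80.3%, and the other 4 of 37 to 57%. The matches in the 2 transcription factor genes are shown with the motif in capitals, for Lhx2 at chr3:42535609-42535658 (plus strand) and for Ebf3 at chr1:201544462-201544511 (minus strand).
Lhx2: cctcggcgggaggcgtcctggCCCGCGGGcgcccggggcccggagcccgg
Ebf3: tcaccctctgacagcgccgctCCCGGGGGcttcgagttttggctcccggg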

How the data were processed

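The 35 arrays were deposited as Feature Extraction output, in which, per the file headers and labels, the intensity of a spot is background-subtracted and not normalized between arrays. A second deposited table, of ratio values scaled by the authors per array and per probe, served as an alternative. Control spots and outlier flags were left out. Intensities were scaled to the median of the array, floored at 0.01 and log2-transformed, and the 2 arrays of a rat were averaged. Transcripts above background on at least 3 arrays of every litter and 6 of 8 adult and old arrays were tested with limma 3.58.1 in R 4.3.3, with newborn as the mean of the litters, Benjamini-Hochberg adjustment over 23668 transcripts and an adjusted p under 0.01 for a call. Pups of a litter are not independent families, and the number of arrays limits the precision. The fit was tested on simulated data.

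The members and gene lists were chosen with earlier results of these data known. Named genes were the members, the 5 listed genes per direction and comparison with the largest called change, and the 3 transcripts most like each member. The brightest probe stood for a gene. Names came from the arrays and the RefSeq gene table, by accession for 10735 probes, by symbol for 5512 and by synonym for 3719. Alternatives covered scaling, background, floor, filter, replicates, blocks, probes, the methods' t-test and each rat left out.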

Additional observations from a re-analysis of the deposited data

Results flagged for a closer look

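Rtp1 in rat 32 of L4 stood apart from its litter, at 1.47 where the other 4 pups lay between 2.02 and 2.18. Its gap to the nearest pup was 0.78 of the range of the litter. This was the 1 value flagged in 78 groups tested, where chance flags about 1 in 20. The Olr median of the same rat was the lowest of all pups, at −2.98.

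The litters differed, by an F test in the limma fit, in Lhx2 (adjusted p = 0.00406), in Ldb1 (adjusted p = 6.4e-06) and in the dimmer probe of Emx2 (adjusted p = 4.15e-05). Lhx2 and Emx2 were lowest in L1 and highest in L2, and Ldb1 was highest in L2.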

How the results depend on the processing

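The 4 members called in newborn against adult rats kept that count without each rat in turn (4 to 4), and Rtp1 kept its direction and call against adult and old rats under every alternative run. In newborn against old rats 3 members were called, 5 with scaling to the 75th percentile and 2 to 5 without 1 rat (5 without L1 rat 10 or L4 rat 34). In adult against old rats 2 were called, 4 with normexp and quantile normalization, and 1 to 2 without 1 rat. Only Atf5 was called with slide or scan day as a random block, with the mean of all probes or with the methods' t-test. Only Ebf2 was called with a filter on all 35 arrays, which Atf5, saturated on 1 adult array, did not pass. In L1 against old rats 3 were called, 1 with slide as a random block and 1 to 4 without 1 rat (fewest without L1 rat 9 or 11). Among litters 2 were called, 1 with quantile normalization, normexp or the slide block, and 1 to 5 without 1 rat. Relative to the Olr median, 9, 8 and 6 members were called, with 4 in newborn against old rats under normexp, and 9 to 9, 8 to 8 and 4 to 6 without 1 rat. In newborn against adult rats, Ldb1, Ebf1 and Ebf3 lost that call under normexp. Under normexp, 3 differences relative to the Olr median changed sign. Lhx2 in newborn against adult rats was called lower (−0.37, SE 0.10, adjusted p = 0.002). Not called were Ebf1 in newborn against adult (−0.019, SE 0.13, adjusted p = 0.899) and the downstream Ebf2 probe in newborn against old rats (−0.064, SE 0.12, adjusted p = 0.634). The cause of these changes was not tested. Without 1 rat the change of the Olr median ran from −0.93 to −0.75, −1.55 to −1.45 and −0.75 to −0.57. Leaving out L1 altogether, an alternative chosen after seeing the data, changed no count by over 1.5 times. No paired analysis was possible because the groups share no rat numbers. Signal near background limits Rtp2 and the Olr median of the pups.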
